A study of Mus musculus with 4 samples.

Results

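The clustered histone genes are the genes for the linker histone H1 and the core histones H2A, H2B, H3 and H4 that lie together in the Hist1 to Hist4 clusters of the mouse genome. They were taken here as the probes, control spots left out, whose gene name in the array files begins with Hist1h, Hist2h, Hist3h or Hist4h. This gave 47 of 41174 probes, for 36 of 27745 gene names. The probes comprised 8 for H1, 17 for H2A, 11 for H2B, 3 for H3 and 8 for H4. By the array design 30 of them lay in the Hist1 cluster on chromosome 13, 9 in Hist2 on chromosome 3, 6 in Hist3 on chromosome 11 and 2 in Hist4 on chromosome 6.

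Each of 4 bones, taken from 35-day-old male mice of strain C57BL/6, gave total RNA for 1 Agilent array covering the mouse genome. The jaw bones were the maxilla and the mandible, and the trunk and limb bones were the ilium and the femur. The labels name no treatment or mutation, and they do not state from how many animals each RNA was taken. The comparison is of jaw with trunk and limb, and the bone was its unit, with n = 2 per class. Its p-values therefore measure the spread between bones of a class, not between animals.

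Replication-dependent histone genes supply the histones that package newly copied DNA, and their transcription peaks in S phase. Their mRNAs mostly end in a stem-loop, bound by the protein SLBP, in place of a poly(A) tail, although some of the genes also give polyadenylated transcripts in cells that have stopped dividing. In bone the dividing cells include the blood precursors of the marrow. The labelling kit named in the labels starts from an oligo(dT) primer, so how fully an mRNA without a tail is measured can differ from gene to gene. The part of this in the results was not tested.

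Promoters of the members are shown first, since the histone families are known to carry different promoter elements and the results are ordered by family. RefSeq promoter windows (build GRCm38.p6, 250 bases upstream of the start) were found for 31 of 36 genes, as 32 windows, and were searched on both strands for 5 short motifs, none of which contains another. The sequence CCAAT was present in 28 of the 32 windows (87.5%), against 33.85% of all 32851 promoters. TATAAA was present in 17 windows (53.1%), against 12.4% of all promoters. The octamer ATTTGCAT was in 11 windows (34.4%), namely 6 of 11 for H2A and 5 of 8 for H2B, against 1.60% of all promoters. The H1 box AAACACA was in 5 of 6 windows for H1 and in 9 of all 32 (28.1%), against 6.25% of all promoters. The H4 element GGTCCG was in 4 of 5 windows for H4 and in 0 of the other histone windows, which made 12.5% of the members, against 6.72% of all promoters.

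The 4 promoters printed here belong to genes that stand for the patterns below. Hist1h1b is the member with the largest difference between the bone classes, and Hist1h1c is an H1 gene with a small one. Hist1h4d is of the evenly shifted H4 family. Hist1h2bk is the H2B gene with a called probe, which was 1 of its 2 probes. The promoters lie at chr13:21780626-21780875 (minus strand), chr13:23738557-23738806 (plus strand), chr13:23581318-23581567 (plus strand) and chr13:22035571-22035820 (plus strand), in that order. Each reads 5′ to 3′ toward the start site, with the matches to the 5 motifs in capitals. Both H1 promoters hold the H1 box, and in this window the letters TATAAA occur in that of Hist1h1b and not in that of Hist1h1c. The Hist1h1c window has a run of alternating T and A near the start site, which a search for these exact letters does not count. Hist1h4d holds the H4 element, an inverted CCAAT and TATAAA close together, and Hist1h2bk holds the octamer.
Hist1h1b: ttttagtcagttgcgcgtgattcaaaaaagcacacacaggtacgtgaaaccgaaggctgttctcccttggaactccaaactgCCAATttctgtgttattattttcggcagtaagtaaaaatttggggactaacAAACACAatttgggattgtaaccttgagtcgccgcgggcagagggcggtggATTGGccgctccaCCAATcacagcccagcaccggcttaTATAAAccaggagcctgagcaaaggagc
Hist1h1c: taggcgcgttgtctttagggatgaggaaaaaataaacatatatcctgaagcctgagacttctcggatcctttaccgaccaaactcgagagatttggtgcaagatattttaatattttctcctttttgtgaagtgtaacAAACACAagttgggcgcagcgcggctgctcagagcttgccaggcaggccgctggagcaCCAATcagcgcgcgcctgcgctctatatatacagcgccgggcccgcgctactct
Hist1h4d: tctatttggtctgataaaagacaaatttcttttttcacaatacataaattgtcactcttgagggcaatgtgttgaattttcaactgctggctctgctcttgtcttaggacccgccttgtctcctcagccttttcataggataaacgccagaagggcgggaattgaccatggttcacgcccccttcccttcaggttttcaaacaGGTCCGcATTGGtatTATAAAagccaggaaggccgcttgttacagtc
Hist1h2bk: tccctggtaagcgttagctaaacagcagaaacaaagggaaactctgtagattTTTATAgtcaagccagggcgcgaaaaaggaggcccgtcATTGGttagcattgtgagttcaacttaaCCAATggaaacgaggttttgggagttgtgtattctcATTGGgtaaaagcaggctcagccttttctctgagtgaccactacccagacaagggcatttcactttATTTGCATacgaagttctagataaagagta

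Signals are given on the log2 scale, with 0 set at the level below which 75% of an array's spots lay. These values serve to compare bones for 1 probe and not probes with each other. Between 72.8% and 75.5% of the 43379 spots of an array were well above background, and 0 were saturated. Of the 47 members, 42 were well above background in all 4 bones, 3 in 3 bones and 1 in 2 bones, and these 46 were tested among 31116 probes. The probe left untested, 1 of the pair for Hist4h4, was not well above background in any bone. Several genes of a family are nearly identical in sequence: 13 probes list accessions of several histone genes, so such probes share targets and are not independent of each other.

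The clustered histone genes were on the whole lower in the maxilla and mandible than in the ilium and femur. In limma, 21 of 46 tested members were called lower in the jaw bones at an adjusted p under 0.05 (45.7%), while 7.89% of all tested probes were. No member was called higher (0 of 46), while 4.92% of all probes were; at an unadjusted p under 0.05 there were 33 members, each lower in jaw, while 35.1% of all probes had such a p and 19.5% had it with jaw lower. The median difference of the members, jaw minus trunk and limb, was -1.34 on the log2 scale, against -0.05 over all tested probes, and 10.5% of all tested probes lay at or below the members' median. Jaw values of 35 members lay below both trunk and limb values and those of 1 member above them, and 10 overlapped; the shares over all probes were 37.5% and 31.2%. For 26 members the gap between the classes was at least 2-fold with jaw lower, against 9.55% of all probes, and for 0 members with jaw higher, against 8.7%. Without the ilium or without the femur, when the lone bone is assumed to vary like the jaw pair, the number called lower was 0, as it was over all probes. Without the maxilla 36 were called lower, when 16.04% of all probes were. Without the mandible 28 were called lower and 2 higher, against 20.75% and 19.1% of all probes.

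**Figure D1:**
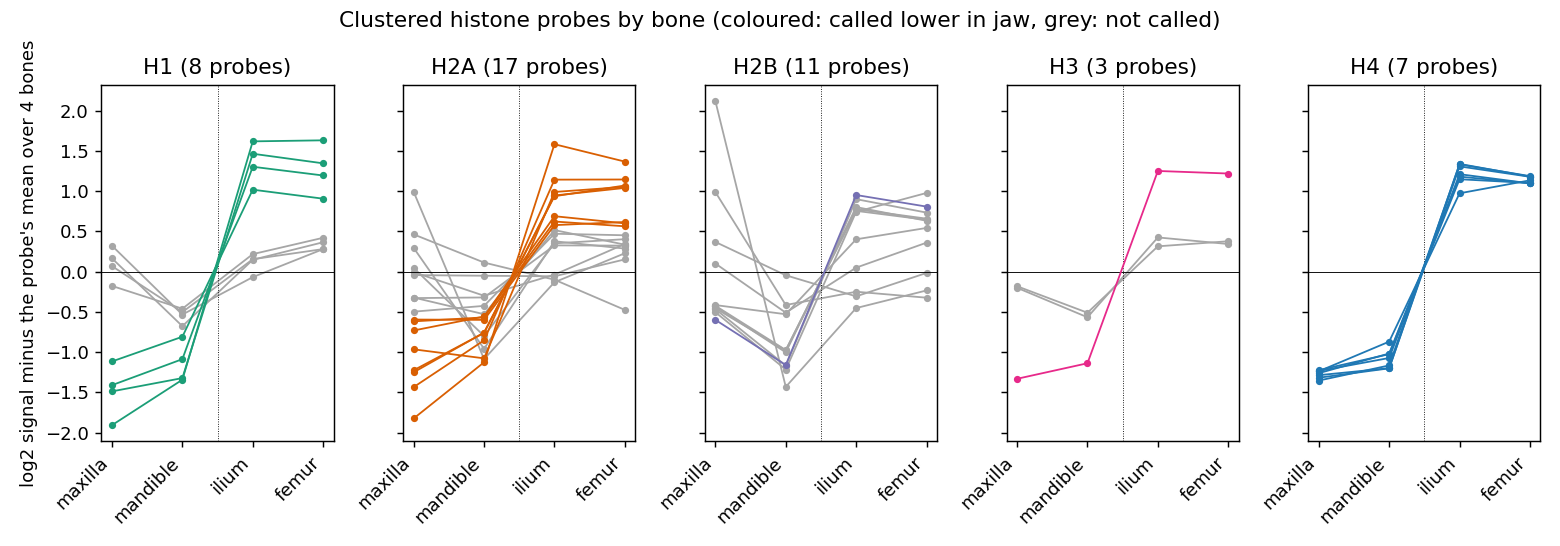
Log2 signal of each of the 46 tested probes in the maxilla, mandible, ilium and femur, minus the mean of the probe over the 4 bones, 1 panel per histone family. Coloured lines are the 21 probes called lower in jaw and grey lines the others. The 7 H4 lines run nearly together, whereas the H2A and H2B panels hold lines that step down in the jaw bones and lines that do not.

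In a bulk sample, fewer cells of a type and less RNA per cell cannot be told apart. Marker genes of marrow blood cells differed between the same bones. Of 8 erythroid markers 6 were called lower in jaw, with a median level of 1.05 in the maxilla and 1.93 in the mandible, against 4.70 in the ilium and 4.95 in the femur. Called lower too were 7 of 8 neutrophil and myeloid precursor markers (median difference -2.32), 6 of 8 B lymphocyte markers (-2.24) and 5 of 5 megakaryocyte markers (-2.55). Among markers of jaw tissue, 6 of 6 tooth matrix genes were called higher in jaw, as were 5 of 5 tested genes of stratified epithelium. Over all tested probes 7.89% were called lower in jaw and 4.92% higher. For osteoblast and osteocyte markers, which define bone, 0 of 8 were called, with a median difference of 1.12, and for skeletal muscle 0 of 6, with a median of -1.64. The part of cell makeup in the histone differences was not tested.

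Linker histones, which bind the DNA between nucleosomes, held the member with the largest difference. Hist1h1b, the gene for H1.5, had 0.83 in the maxilla and 1.40 in the mandible, against 4.36 in the ilium and 4.37 in the femur. The difference of -3.25 ± 0.28 (SE), or 9.51-fold lower in jaw, had an adjusted p of 0.0306 in limma. This was also the lowest adjusted p of any probe, shared by many.

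Hist1h1a, for H1.1, had -2.03 in the maxilla and -1.70 in the mandible, against 0.69 in the ilium and 0.58 in the femur, and fell 5.65-fold (-2.50 ± 0.22, adjusted p = 0.0306). Hist1h1c, for H1.2, had 2.96 and 2.67 in the maxilla and mandible, against 3.35 and 3.56 in the ilium and femur. Its jaw values lay below the others by a small margin, and the difference of -0.64 ± 0.22 did not pass the test (adjusted p = 0.14). Hist1h1t, known as the testis linker histone, differed by -0.51 ± 0.36 (adjusted p = 0.38) and was not well above background in the mandible.

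The remaining 2 linker genes had a pair of probes each, and within each pair only 1 probe was called. For Hist1h1d (H1.3), the probe at chr13:23563048-23563107 of build mm8 had -1.32 in the maxilla and -1.16 in the mandible, against 1.63 in the ilium and 1.51 in the femur. It was 7.02-fold lower (-2.81 ± 0.20, adjusted p = 0.0306). A probe 1751 bases further along in the direction of transcription had -3.46 and -4.03 in the maxilla and mandible, against -3.37 and -3.25 in the ilium and femur, a difference of -0.43 ± 0.28 (adjusted p = 0.34). For Hist1h1e (H1.4), the probe at chr13:23629303-23629362 differed by -1.92 ± 0.22 (adjusted p = 0.0308). The one 2320 bases downstream of it differed by -0.21 ± 0.38 (adjusted p = 0.72), with overlapping bones. In all, 4 of 8 H1 probes were called lower, with a median of -1.28.

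H2A, which pairs with H2B in the nucleosome core, had 8 of 17 probes called lower and a median of -0.92. Hist1h2ab had -0.09 in the maxilla and 0.61 in the mandible, against 3.317 in the ilium and 3.101 in the femur. It was 7.73-fold lower in the jaw bones (-2.95 ± 0.32, adjusted p = 0.0306). Hist1h2ak had 2.87 and 3.36 in the maxilla and mandible, against 5.06 and 5.19 in the ilium and femur, and was 4.02-fold lower (-2.01 ± 0.26, adjusted p = 0.0326). Maxilla minus mandible was -0.70 for Hist1h2ab and -0.49 for Hist1h2ak, beside a median absolute gap of 0.43 over all tested probes. Ilium minus femur was 0.22 and -0.13 in the same order.

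Not every H2A probe was called. Hist1h2aa, named for its germ line expression as TH2A, differed by -0.92 ± 0.19 (adjusted p = 0.058), and passed with normexp background correction (0.041) and with the filter on all 4 arrays (0.048). It had 6.80 and 6.87 in the maxilla and mandible, against 7.77 and 7.75 in the ilium and femur. Hist2h2aa1 had 1.01 in the maxilla and -0.24 in the mandible, against 1.09 in the ilium and 1.00 in the femur, so that 1 jaw bone lay within the trunk and limb range. Its difference was -0.66 ± 0.49 (adjusted p = 0.39).

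Probes a short way apart under 1 H2A name also differed. For Hist1h2af the probe at chr13:23541396-23541455 had 3.43 in the maxilla and 4.01 in the mandible, against 6.01 in the ilium and 6.01 in the femur (-2.29 ± 0.28, adjusted p = 0.0316). The one 308 bases further along had 6.79 and 6.80 in the maxilla and mandible, against 7.44 and 7.44 in the ilium and femur, a difference of -0.65 ± 0.19 that did not pass (adjusted p = 0.099). Both list several H2A genes, but not the same set. For Hist2h2aa2, neither probe passed: the first differed by -0.75 ± 0.36 (-0.074 with normexp background correction) and the one 390 bases downstream by 0.58 ± 0.26. At the second of these both jaw values lay above both trunk and limb values.

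Hist3h2a had 4 probes. The one at chr11:58771080-58771139 had 3.12 in the maxilla and 3.01 in the mandible, against 5.07 in the ilium and 5.14 in the femur, and was 4.12-fold lower (-2.04 ± 0.19, adjusted p = 0.0306). A probe at chr11:58770911-58770970, placed on the opposite strand, differed by -1.29 ± 0.20 (adjusted p = 0.039), and missed the threshold with no filter (0.061) and after quantile normalization (0.0502). The probe 567 bases downstream of the first had 1.77 and 1.76 in the maxilla and mandible, against 1.76 and 1.97 in the ilium and femur, a difference of -0.09 ± 0.20. The last, 17380 bases downstream, differed by -0.31 ± 0.25, and for neither did the classes separate. The sign of the difference at both turned with the processing.

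**Figure D2:**
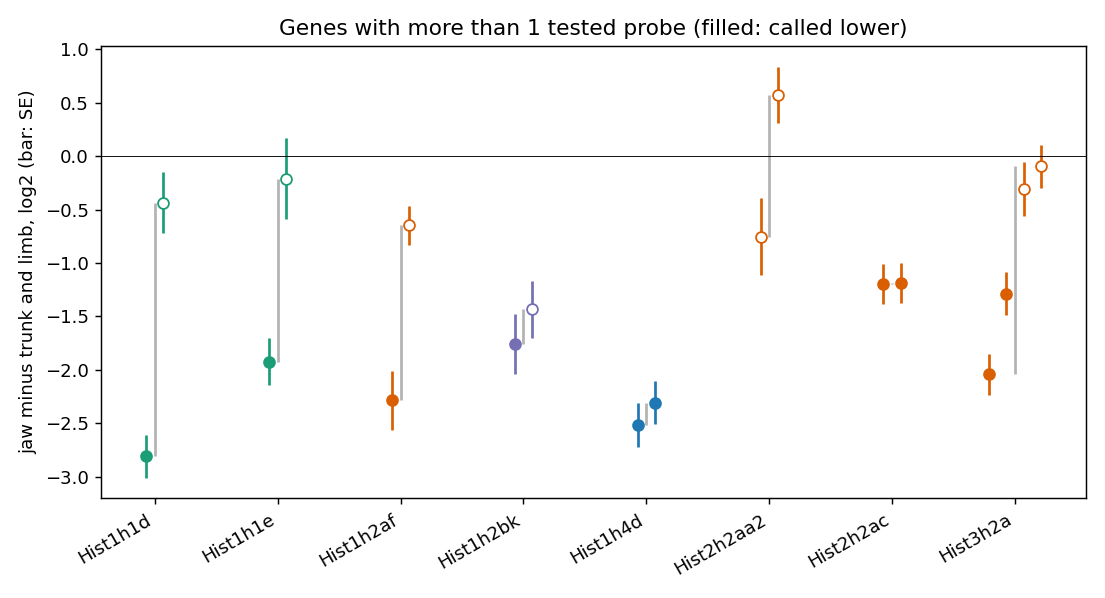
Log2 difference, jaw minus trunk and limb, with its SE, for each tested probe of the genes with more than 1 tested probe. Filled points are probes called lower and open points are not called. The probes of Hist1h1d, Hist1h1e, Hist1h2af and Hist2h2aa2, and the outermost of Hist3h2a, are over 1 log2 unit apart, while those of Hist1h4d, Hist1h2bk and Hist2h2ac lie close together.

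Of 9 genes with several probes, the pairs for Hist1h4d, Hist1h2bk and Hist2h2ac differed by at most 0.33 log2 units in their class difference. The Hist2h2ac probes were placed 25283 bases apart on opposite strands, and the one on the minus strand lists no RefSeq histone gene. The Hist4h4 pair was split in another way. Its probe at chr6:136768392-136768451 was called lower, and the one 1612 bases downstream was not well above background in any bone. For Hist1h1d, Hist1h1e, Hist1h2af and Hist3h2a, the probe that lay first along the gene's strand had the larger difference. What the downstream probes measure, and whether transcripts with different ends contribute, was not tested.

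H2B combined a low count of calls with a large median. Only 1 of 11 probes was called lower, but the median difference was -1.40 and 6 probes had the 2-fold gap. Of the 2 Hist1h2bk probes, 66 bases apart, 1 was called. It had 1.52 in the maxilla and 0.96 in the mandible, against 3.07 in the ilium and 2.93 in the femur (-1.76 ± 0.28, 3.39-fold lower, adjusted p = 0.041). Without a filter on background it missed the threshold (adjusted p = 0.060), as it did after quantile normalization (0.054). The other probe differed by -1.43 ± 0.27 and did not pass (adjusted p = 0.0504). Each of the pair lists 4 H2B genes.

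Hist1h2bp, Hist1h2ba and Hist3h2bb just missed the threshold. Hist1h2bp had -5.26 in the maxilla and -5.97 in the mandible, against -4.01 in the ilium and -3.78 in the femur (-1.72 ± 0.33, adjusted p = 0.052). Hist1h2ba, the testis H2B gene, had 2.00 and 1.30 in the maxilla and mandible, against 3.37 and 3.20 in the ilium and femur (-1.63 ± 0.32, adjusted p = 0.054). In Hist3h2bb the difference was -1.43 ± 0.28 (adjusted p = 0.055). Its probe lists only H2bu2, which is the RefSeq symbol of Hist3h2ba. The Hist3h2ba probe, which also lists H2bu2, differed by -0.41 ± 0.31 (adjusted p = 0.40), with overlapping bones. In Hist1h2bp, Hist1h2ba and Hist3h2bb both jaw bones lay below both other bones, with the mandible the lowest. Each of the 3 passed the threshold with centring on the array median, in the series table and with a filter asking for all 4 arrays, and none did with no filter. With quantile normalization Hist1h2ba (adjusted p = 0.074) and Hist3h2bb (0.083) did not pass, and with normexp background correction the difference of Hist1h2bp shrank to -0.66 (adjusted p = 0.16).

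A few H2B genes did not follow. Hist1h2bc had 2.22 in the maxilla and 1.80 in the mandible, against 1.54 in the ilium and 1.83 in the femur. The bones overlapped, and the 0.32 ± 0.26 did not pass (adjusted p = 0.43). Hist2h2be had the largest gap between the jaw bones of any member, with 3.37 in the maxilla and -0.18 in the mandible, against 0.80 in the ilium and 1.01 in the femur. Its class difference of 0.69 ± 1.29 did not pass the test (adjusted p = 0.73). Without the maxilla it was -1.09, past the threshold (adjusted p = 0.036), and without the mandible it was 2.46, past the threshold the other way (adjusted p = 0.0074).

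H3, whose tail carries many of the known histone modifications, had 3 probes and 1 call. Hist1h3a had -4.34 in the maxilla and -4.15 in the mandible, against -1.76 in the ilium and -1.79 in the femur, and was 5.54-fold lower (-2.47 ± 0.20, adjusted p = 0.0306). With normexp background correction, which bears on dim probes such as this, the difference was -1.61 (adjusted p = 0.023). Hist1h3d and Hist2h3c1, each of whose probes lists several H3 genes, differed by -0.77 ± 0.23 (adjusted p = 0.11) and -0.69 ± 0.22 (adjusted p = 0.12). In all 3 probes both jaw bones lay below the other bones.

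H4, the partner of H3, was the family with the most even differences. All 7 tested H4 probes were called lower in jaw, each with an adjusted p of 0.0306, and their differences spanned only -2.52 to -2.11 on the log2 scale. They came from the Hist1, Hist2 and Hist4 clusters, on chromosomes 13, 3 and 6. Hist4h4, alone in its cluster, had 0.97 in the maxilla and 1.09 in the mandible, against 3.63 in the ilium and 3.47 in the femur, and was 5.73-fold lower (-2.52 ± 0.20).

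In Hist1h4d the pair of probes, 158 bases apart, gave -2.52 ± 0.21 and -2.31 ± 0.20. The first of them had 1.55 and 1.74 in the maxilla and mandible, against 4.23 and 4.09 in the ilium and femur. Hist1h4a had 2.45 and 2.54 in the maxilla and mandible, against 5.05 and 4.92 in the ilium and femur (-2.49 ± 0.19), and its probe lists 3 H4 genes. Hist1h4i had the smallest difference of the family, with 0.58 and 0.95 in the maxilla and mandible, against 2.79 and 2.95 in the ilium and femur (-2.11 ± 0.24). Because H4 genes encode the same protein and their coding sequences are much alike, these 7 probes do not stand for 7 separate measurements.

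**Figure D3:**
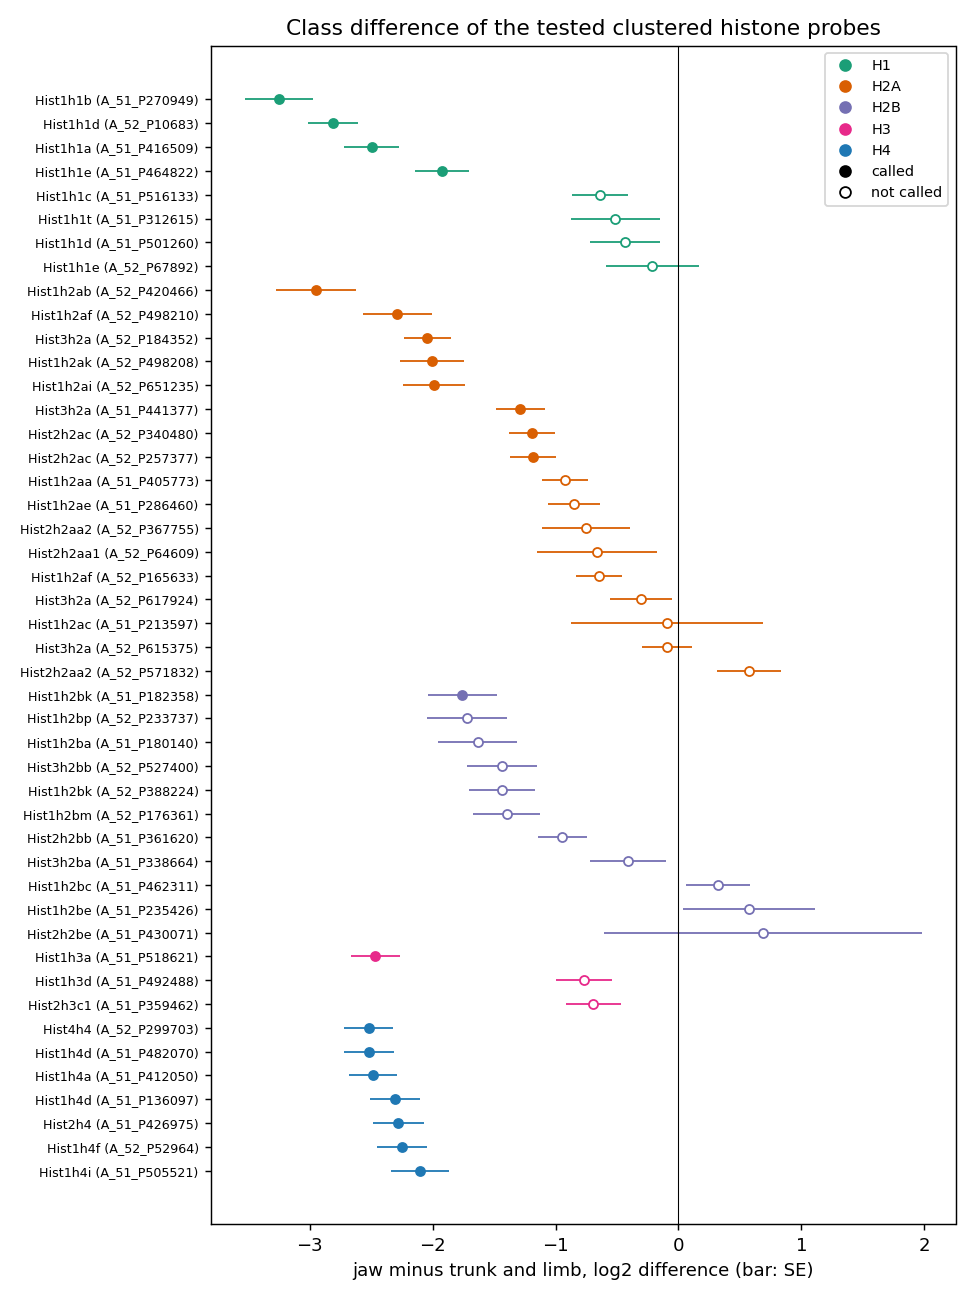
Log2 difference, jaw minus trunk and limb, with its SE, for each of the 46 tested probes, ordered within histone families. Filled points passed the threshold and open points did not. The 7 H4 probes lie between -2.52 and -2.11, while H2A runs from -2.95 to 0.58 and H2B from -1.76 to 0.69.

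By cluster, 15 of 30 tested Hist1 probes were called lower (median -1.74), 3 of 9 in Hist2 (median -0.75) and 2 of 6 in Hist3 (median -0.85). The single tested Hist4 probe was called as well. Clusters hold different families, and the difference between clusters or between families was not tested. Of the probes that list exactly 1 histone gene 11 of 24 were called, and of those that list several 7 of 13. Among tested probes that list no RefSeq histone gene, 3 of 9 were called. Calls were therefore not limited to probes that list several genes. A listing does not settle which gene copies a probe measures, and this was not tested.

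Within the jaw there was 1 array per bone, so the differences between maxilla and mandible have no test. The families went opposite ways there: all 7 tested H4 probes were higher in the mandible, by 0.09 to 0.37 on the log2 scale, and all 11 H2B probes were higher in the maxilla, by 0.11 to 3.55. The H4 gaps were all below 0.43, the median absolute gap between the jaw bones over all tested probes. The medians of maxilla minus mandible were -0.19 for H4 and 0.57 for H2B, beside -0.07 over all tested probes. H1 was even, with 4 probes each way, and in H2A 9 probes were higher in the maxilla and 8 in the mandible. The 75th percentile of signal was 809.5 in the maxilla and 1142 in the mandible, and the median 120.9 and 142.9. Centring on the median therefore lowers maxilla minus mandible by the same amount for every probe. The sign of small gaps, and so the counts each way, depend on the scaling, whereas the distance between the family medians does not.

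Differences of 2-fold or more between the jaw bones were found for 4 of 46 members, all higher in the maxilla. This was a smaller share than the 14.8% of all probes that were 2-fold higher there. None was at least 2-fold higher in the mandible (0 of 46), against 8.37% of all probes. Hist2h2be, the first of them, encodes an H2B known from olfactory sensory neurons of the mouse, and the maxilla exceeded the mandible by 3.55 on the log2 scale. Hist2h2aa1 did so by 1.25. Hist1h2ac was not well above background in the mandible. Its maxilla value was 3.46-fold above the lowest mandible signal that was well above background. Hist1h2be was 2.64-fold higher in the maxilla than its own mandible value, which was not well above background. These 2 figures set the maxilla's value against the higher of the mandible's own value and its lowest signal well above background. Neither is a firm bound. The count of 4 members became 2 with normexp background correction and 3 with centring on the array median.

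Genes of the nose and its glands also differed between the jaw bones. Of the 5 measured nasal and salivary secretory markers the median level was 7.19 in the maxilla and -3.86 in the mandible. Of 6 olfactory neuron genes, a list drawn up after the histone values were seen, 5 had a probe, and in all 5 the maxilla exceeded the mandible, by 0.61 to 8.31 with a median of 5.60 on the log2 scale. Among these, Omp, the olfactory marker protein, had -0.45 in the maxilla and -6.05 in the mandible, against -5.25 in the ilium and -4.78 in the femur. Gng13, a G protein subunit of sensory cells, had 3.36 in the maxilla and -4.95 in the mandible, against -6.09 in the ilium and -5.97 in the femur. The part of nasal tissue in the Hist2h2be value was not tested.

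**Figure D4:**
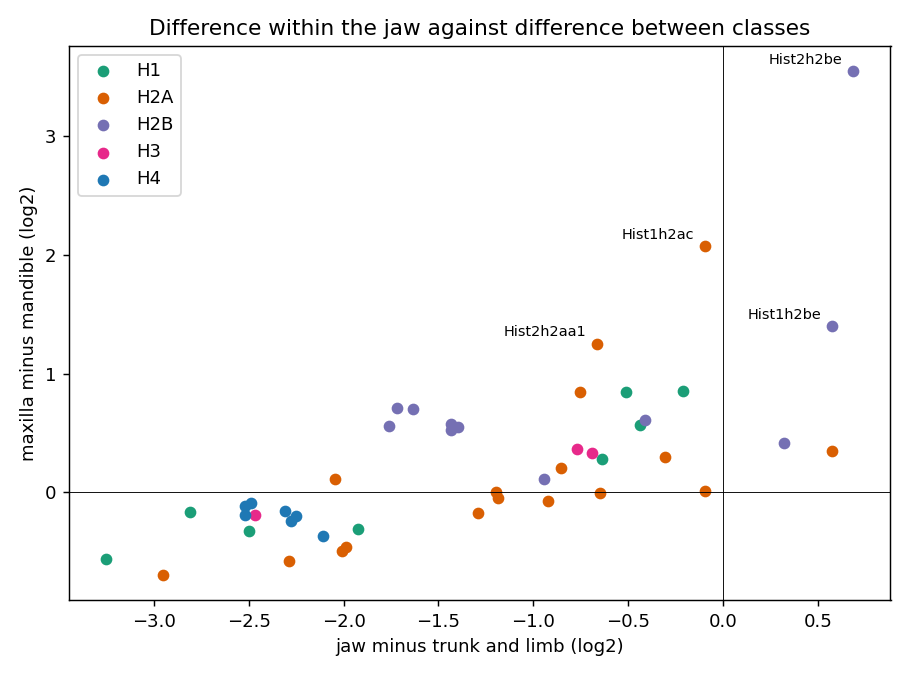
Maxilla minus mandible against jaw minus trunk and limb, both as log2 differences, for the 46 tested probes coloured by histone family. The H2B points all lie above 0 on the vertical axis and the H4 points all below it, and Hist2h2be stands apart at 3.55.

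The ilium and the femur gave nearly the same histone values. Of 45 members well above background in the brighter of the pair, 0 differed by 2-fold or more, where 2.13% of all probes were that much higher in the ilium and 2.33% in the femur. Their differences, ilium minus femur, ran from -0.38 to 0.38 with a median of 0.03. The median absolute gap was 0.12, against 0.19 over all tested probes. The largest gaps were those of Hist3h2a (-0.38 at the probe farthest downstream), Hist2h2aa2 (0.38), Hist1h2ac (-0.36) and the downstream probe of Hist1h1e (-0.35), none of which was called between the classes.

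The lists for histone mRNA processing and for histone chaperones had shares of calls between those of the histones and of all probes (7.89% lower). Among 14 genes of histone mRNA processing and histone gene transcription 3 were called lower and 0 higher, with a median of -0.63. Slbp, for the protein that binds the stem-loop, had 1.97 in the maxilla and 2.58 in the mandible, against 4.19 in the ilium and 4.39 in the femur (-2.02 ± 0.30, adjusted p = 0.037). The other 2 called were Eri1, an exonuclease that trims histone mRNA, at -1.31 and Cstf2, a cleavage factor subunit, at -1.16. Lsm11, a part of the U7 particle that cuts histone mRNA, differed by -1.41 ± 0.32 without passing (adjusted p = 0.067).

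Npat, the coactivator of histone transcription at the clusters, differed little. It had -1.05 in the maxilla and -0.53 in the mandible, against -0.38 in the ilium and -0.28 in the femur (-0.46 ± 0.27, adjusted p = 0.29). Cpsf3, the endonuclease of mRNA cleavage, had the smallest difference in its list at -0.25 ± 0.20 (adjusted p = 0.43).

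Of 13 histone chaperones and import factors 3 were called lower and 0 higher (median -0.97). Asf1b, which hands newly made H3 and H4 to other chaperones in dividing cells, had 0.07 in the maxilla and 1.06 in the mandible, against 3.27 in the ilium and 3.75 in the femur. It was 7.68-fold lower in jaw (-2.94 ± 0.44, adjusted p = 0.038). Chaf1a and Chaf1b, subunits of the chromatin assembly factor at replication forks, were called at -2.27 and -2.12. Nap1l1, a chaperone of H2A and H2B, differed by 0.02 ± 0.22 (adjusted p = 0.95).

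Replacement variants, whose genes lie outside the clusters, had 1 of 11 called lower and 0 higher, a share near that of all probes, with a median of -0.60. The call was H2afy, for macroH2A1, at -1.02 ± 0.19 (adjusted p = 0.0498). Cenpa, the H3 variant of centromeres, had -2.47 in the maxilla and -1.10 in the mandible, against 0.50 in the ilium and 0.83 in the femur. Its -2.45 ± 0.54 did not pass (adjusted p = 0.064), nor did the -1.93 ± 0.45 of H2afx, the variant phosphorylated at DNA breaks (adjusted p = 0.070). H1fx, a linker variant, differed by -0.15 ± 0.50 (adjusted p = 0.85). Differences above 0, none of which passed, were those of H2afy2 (1.53 ± 0.54, adjusted p = 0.14), H1f0 (0.88 ± 0.24, adjusted p = 0.093) and H3f3b (0.35 ± 0.23, adjusted p = 0.35).

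Genes of DNA replication and cell division were lower in the jaw bones throughout their lists. Of 20 S phase genes 15 were called lower and 0 higher (median -1.94), and all 20 had both jaw bones below both other bones. Over all tested probes 7.89% were called lower, and 37.5% had both jaw bones below both other bones. Cdc6, which loads the replicative helicase, fell 8.97-fold (-3.17 ± 0.40, adjusted p = 0.032), and Ccne1, for cyclin E1, fell 7.25-fold (-2.86 ± 0.38, adjusted p = 0.033). Of 12 mitosis genes 7 were called lower and 0 higher (median -2.39), and in all 12 the jaw bones lay below. Ccnb2, for cyclin B2, and Plk1, a mitotic kinase, were called at -2.92 ± 0.43 and -2.91 ± 0.53. Aurka, for Aurora kinase A, differed by -2.23 ± 0.47 without passing (adjusted p = 0.060).

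Between the jaw bones the division lists had larger median gaps than H4. The median of maxilla minus mandible was -0.75 for the S phase genes and -1.03 for the mitosis genes, with the mandible higher, beside -0.19 for H4 and 0.57 for H2B. The families and the division genes thus had class medians in the same direction, but with this scaling the H2B probes went the other way within the jaw. The difference between these lists was not tested.

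**Figure D5:**
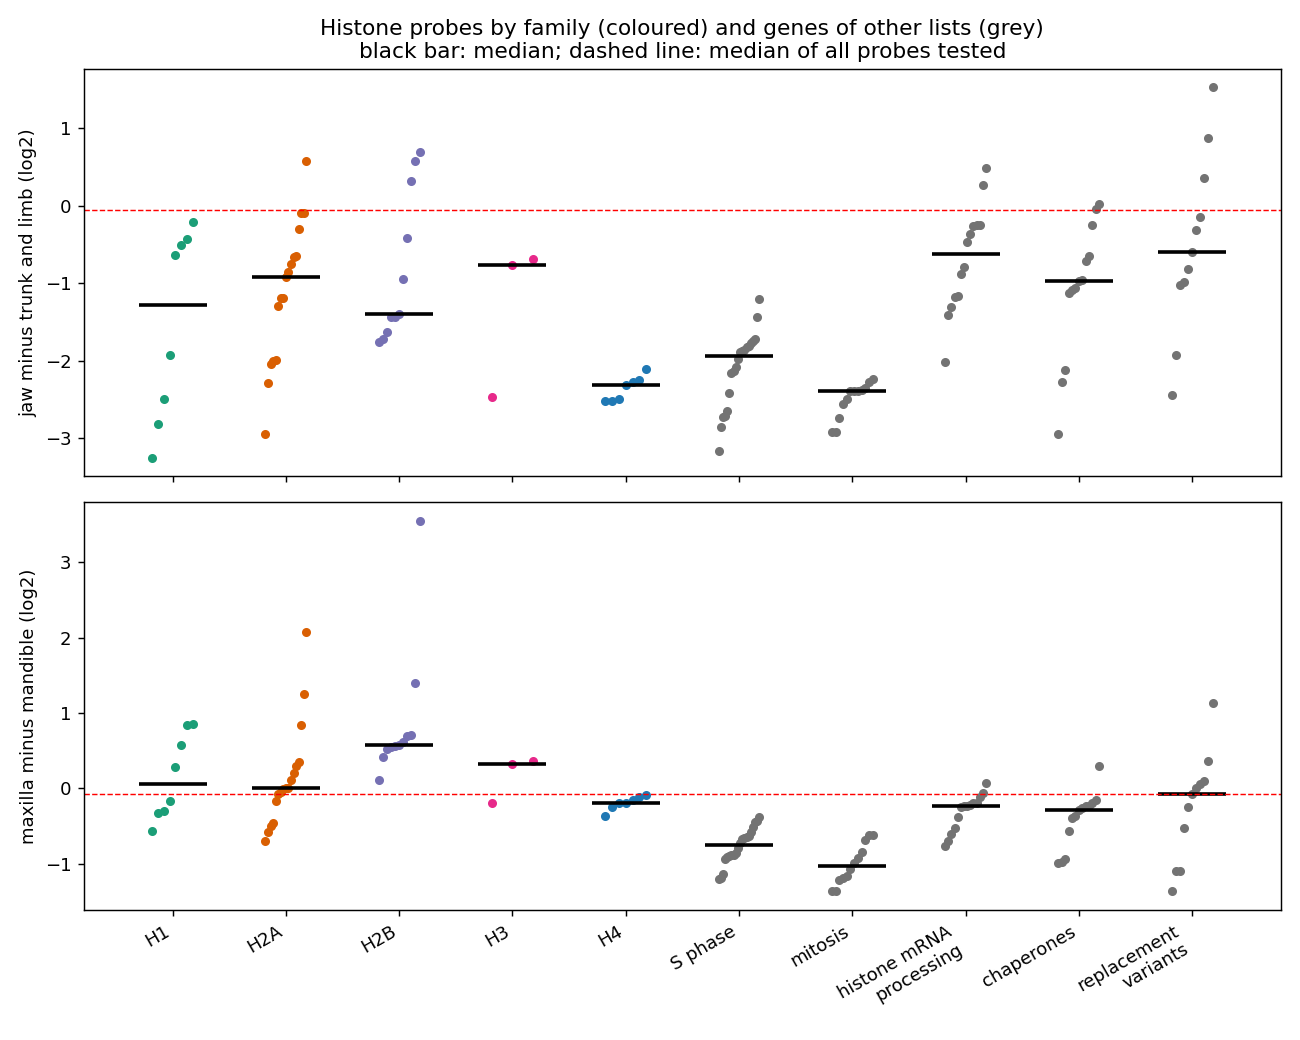
Log2 differences, jaw minus trunk and limb in the upper panel and maxilla minus mandible in the lower panel, for the histone probes by family (coloured) and for genes of other lists (grey). Black bars are medians and the dashed red line is the median of all tested probes. Families and division lists have medians below that line in the upper panel, and in the lower panel H2B lies above it while S phase and mitosis genes lie below.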

How the data were processed

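Labelled RNA from the maxilla, mandible, ilium and femur was measured on 4 one-colour arrays, all on 1 slide with 1 recorded scan time, so bone and slide position cannot be told apart. Each deposited scanner file gives linear intensity per spot, read by Agilent Feature Extraction (version 9.5.3.1 according to the submitters' processing notes); the processed signal was background-subtracted and detrended, per the file headers. A deposited table of log2 values, for which the series description names GeneSpring, served as an alternative. Positions of probes refer to mm8, per the file headers.

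Processed signals were log2-transformed and each array's 75th percentile was subtracted, with outlier spots dropped and the remaining spots of a probe averaged. Every member was printed in a single spot. Of 41174 probes 24375 were named by RefSeq accession, 6301 by current and 2426 by older symbols, and 8072 kept the name in the file. The deposited flag for signal well above background, on at least 2 of 4 arrays, set which probes were tested. Classes were compared with limma 3.58.1 (R 4.3.3, lmFit and eBayes, 2 residual degrees of freedom), adjusted by the Benjamini-Hochberg method over 31116 probes with a threshold of 0.05. The fit was also run on simulated data with known differences. These were larger than those of nearly all members, so the run does not check the fit at the sizes reported here. Comparisons of 1 bone with another have no test and use a 2-fold rule. Over 245 probes printed at least 5 times, spots of a probe had a median SD of 0.062 to 0.083 log2 units per array, a technical error only. Precision is limited by the number of arrays.

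The members and gene lists were chosen with earlier results of these data known, and the olfactory list after the values here were seen. Genes named with values were, per family, the 4 largest differences and the smallest, the largest gaps within each class, genes whose probes disagree, the germ line genes, the extremes of each other list, and Slbp and Npat. A gene that this rule names is not reported here. Hist1h1c, Hist2h2ac, Hist1h2be and Chaf1b, H2afy2, H1f0, H3f3b, called list genes and the second olfactory gene were added after their values were seen. Alternatives changed the background correction, normalization, filter, spots, probe choice and bones.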

Additional observations from a re-analysis of the deposited data

How the results depend on the processing

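The count of 21 members lower in jaw was 26 with normexp, 20 with quantile normalization, 26 with centring on the array median, 26 in the deposited series table, 17 with no filter (of 47), 28 with the filter on all 4 arrays (of 42), 21 without outlying probes and 16 with 1 probe per gene (of 36). Leaving out 1 bone gave 0 to 36 members lower and 0 to 2 higher: 0 lower without the ilium or the femur, where limma called 0 of 31116 probes and 19 and 22 members had an unadjusted p under 0.05, beside 17.9% and 13.2% of all probes, 36 without the maxilla, and 28 lower and 2 higher without the mandible. The median of -1.34 was -1.60 in the series table and -1.48 to -1.18 without 1 bone. Centring on the array median gave a median over all probes of -0.31, as did the series table, against -0.05 for the values reported; of all calls 2781 of 3787 and 2661 of 3650 were lower there, against 2455 of 3987. Leaving out a bone can only keep or widen a gap between the classes, so that count has no such check. Of the 4 members 2-fold higher in the maxilla, 2 were left with normexp and 2 with the filter on all 4 arrays.

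Signs turned at members with small differences. With normexp these were Hist1h2ac (0.24), Hist1h1t (0.048) and the probe of Hist3h2a farthest downstream (0.071), and with quantile normalization the probe of Hist3h2a 567 bases downstream (0.032). Without 1 bone the range was -1.13 to 0.94 for Hist1h2ac, -0.199 to 0.011 for that probe of Hist3h2a, -0.64 to 0.22 for the downstream probe of Hist1h1e and -1.09 to 2.46 for Hist2h2be. The cause was not tested. No paired analysis was possible because the labels carry no replicate numbers and each bone has 1 array. Signal near background limits Hist1h1t, Hist1h2ac, Hist1h2be and Hist2h2aa2, each of them below that mark in at least 1 bone.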
